A study of Mus musculus with 2 samples.

Results

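The genes of the acute phase proteins examined here were Hp, Orm1, Orm2, Orm3, Saa1, Saa2, Saa3, Saa4, Lrg1 and Itih4. They were chosen by name, and all 10 were found by Ensembl identifier among the 43346 Ensembl genes of the deposited tables. Polyadenylated RNA had been sequenced from the gonadal fat pad of C57BL/6J mice at 8 weeks of age, in 2 libraries that the labels number as biological replicates 1 and 2 of 1 group. The mice were littermates of both sexes, pooled, without a named treatment or health state. Both libraries carry 1 donor identifier, so the number of mice behind each is not known. There was no second condition, and the libraries were compared with each other without a test. Any difference below is one between 2 libraries and may be technical.

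Acute phase proteins are secreted plasma proteins whose blood levels change during infection, injury and inflammation. The liver is their main source. There interleukin-6 acts through STAT3, and interleukin-1 and tumour necrosis factor through NF-kB and C/EBP factors, to raise the transcription of many of them. White fat is a known second source of several of them, haptoglobin and serum amyloid A3 among them, and their adipose expression is known to increase in obesity.

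The genes fell into 2 clusters of related copies and 3 single genes, all on build mm10. The serum amyloid A genes lie within 42316 bases of chromosome 7, with Saa3 (46711998 to 46715700), Saa4 (46727998 to 46732603) and Saa1 (46740497 to 46742980) on the minus strand and Saa2 (46751790 to 46754313) on the plus strand. The orosomucoid genes lie within 21319 bases of chromosome 4, all on the plus strand, in the order Orm1 (63344560 to 63348163), Orm3 (63356162 to 63359511) and Orm2 (63362449 to 63365878). Hp lies on chromosome 8 (109575128 to 109579172), Lrg1 on chromosome 17 (56119678 to 56122001) and Itih4 on chromosome 14 (30886476 to 30902353). No member overlapped another annotated gene.

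Since copies within a cluster can share reads, it matters how far their sequences differ. The coding sequences of Orm1 and Orm2, from GENCODE M21, were 89.9% identical over 624 aligned positions, Orm2 and Orm3 were 88.0% identical and Orm1 and Orm3 were 86.1% identical. A 76-base window within 1 coding exon, picked so that the closest pair in it differs at the most positions, is printed here to show what separates a read of one from a read of another. Capitals mark the 29 positions at which the 3 copies are not all alike. The window is at chr4:63345092-63345167 in Orm1, chr4:63362967-63363042 in Orm2 and chr4:63356594-63356669 in Orm3, all on the plus strand.
Orm1: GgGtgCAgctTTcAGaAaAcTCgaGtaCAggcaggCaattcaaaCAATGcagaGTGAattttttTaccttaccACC
Orm2: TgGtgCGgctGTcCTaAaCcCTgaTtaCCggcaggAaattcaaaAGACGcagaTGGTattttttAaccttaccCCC
Orm3: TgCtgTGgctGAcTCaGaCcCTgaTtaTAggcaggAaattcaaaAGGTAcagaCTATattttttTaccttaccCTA
Orm1 and Orm2 differ at 19 of these positions, Orm2 and Orm3 at 17, and Orm1 and Orm3 at 25. Elsewhere the copies were closer. Of the 700 distinct windows of 76 bases in the Orm1 transcript, which is the length of a read, 95 (13.6%) also occurred letter for letter in Orm2. None of the 698 windows of Orm3 occurred letter for letter in another gene.

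Saa1 and Saa2 were the closest pair, 95.1% identical over 369 coding positions, against 73.2% for Saa1 and Saa3 and 59.8% for Saa3 and Saa4. A window of Saa1, Saa2 and Saa3 picked in the same way is shown because the reads of these genes have to be told apart for the levels below. Capitals mark the 11 positions that vary. It lies at chr7:46741319-46741394 in Saa1 and chr7:46712652-46712727 in Saa3 (minus strand) and at chr7:46753418-46753493 in Saa2 (plus strand).
Saa1: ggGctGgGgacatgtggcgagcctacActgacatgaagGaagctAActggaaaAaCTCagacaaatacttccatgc
Saa2: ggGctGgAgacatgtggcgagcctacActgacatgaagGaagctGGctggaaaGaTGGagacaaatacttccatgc
Saa3: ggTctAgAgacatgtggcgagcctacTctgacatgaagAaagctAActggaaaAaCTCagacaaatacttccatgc
Saa1 and Saa2 differ at 7 of these positions, Saa1 and Saa3 at 5, and Saa2 and Saa3 at 10. Over their whole transcripts Saa1 and Saa2 shared 24 windows of 76 bases, 4.49% of those of Saa1 and 4.52% of those of Saa2. For Hp, Lrg1, Itih4, Saa3 and Saa4, 1 transcript each was searched, and none shared such a window with another annotated gene on either strand. Reads with mismatches were not considered in this search.

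Levels are given as TPM, a relative abundance of transcripts scaled by their length, so that genes can be compared. Of the 10 genes 4 reached 1 TPM in both libraries, Hp, Lrg1, Orm1 and Saa3, against 33.0% of all Ensembl genes. The expected counts of all 10, called fragments here, came to 62197 in replicate 1, or 0.132% of all, and to 117220 in replicate 2, or 0.217%. Hp alone made up 80% and 83.8% of those fragments, Lrg1 17.6% and 12.2%, and Orm1 2.03% and 3.82%.

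**Figure D1:**
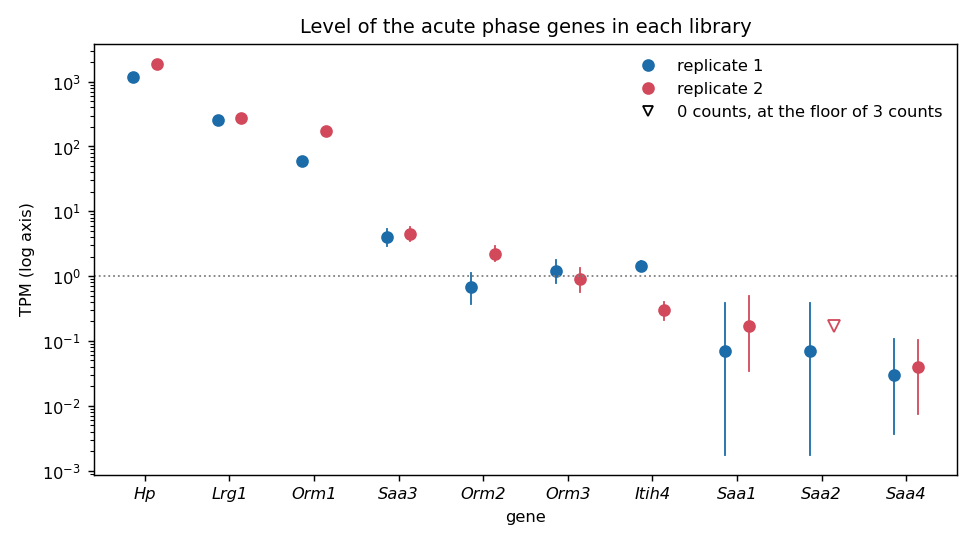
Level of each gene in TPM on a log axis, with genes ordered by mean, replicate 1 in blue and replicate 2 in red; bars are 95% counting intervals the open triangle is a count of 0 drawn at 3 fragments, and the dotted line marks 1 TPM. Hp, Lrg1 and Orm1 lie above 60 TPM in both libraries, and Saa1, Saa2 and Saa4 lie below 0.2 TPM.

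Hp (ENSMUSG00000031722.9), which encodes haptoglobin, the plasma protein that binds free haemoglobin, was the highest member. It stood at 1184 TPM in replicate 1 and 1889 TPM in replicate 2 (1537 ± 498, SD, n = 2). These levels rested on 49745 and 98221 fragments. Ordered by TPM, Hp was gene number 110 in replicate 1 and number 65 in replicate 2. Its level was 1.54 and 1.45 times that of Adipoq, which encodes the fat cell hormone adiponectin. A single Hp transcript of 1343 nt carried all of its counts in the deposited annotation.

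Lrg1 (ENSMUSG00000037095.7), which encodes leucine-rich alpha-2-glycoprotein, a secreted protein that modulates TGF-beta signalling in endothelium, was second and nearly equal in the libraries. It was at 259 and 274 TPM (266 ± 10.5, SD, n = 2), from 10949 and 14333 fragments. Its fraction of the fragments, set as replicate 2 over replicate 1, was 1.14 times as high (95% counting interval 1.11 to 1.17).

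Orm1 (ENSMUSG00000039196.2), which encodes orosomucoid 1, a lipocalin-type carrier of small molecules in plasma also called alpha-1-acid glycoprotein, came next. It was at 60.6 TPM in replicate 1 and 175 TPM in replicate 2 (118 ± 80.8, SD, n = 2), from 1262 and 4477 fragments. Its neighbours in the cluster were far lower. Orm2 was at 0.69 and 2.21 TPM, from 14 and 57 fragments, and Orm3 at 1.2 and 0.90 TPM, from 25 and 23 fragments. The level of Orm1 was 87.8 and 79.1 times that of Orm2, and 50.5 and 194 times that of Orm3. Fragments assigned to Orm2 came to 1.14% and 1.26% of those assigned to Orm1, and whether some of them came from Orm1 RNA was not tested. The deposited posterior standard deviation of the counts of Orm1 and of Orm2, which describes the uncertainty of the split, was 0.68 fragments in replicate 1 and 0.79 in replicate 2 for both genes.

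Of the serum amyloid A genes, which encode apolipoproteins that travel on high-density lipoprotein during inflammation, Saa3 was the one detected above a few fragments. Saa3 (ENSMUSG00000040026.7), the form known to be made outside the liver, was at 4.01 and 4.48 TPM (4.25 ± 0.332, SD, n = 2), from 47 and 64 fragments. Saa1 and Saa2, the forms that the liver releases in the acute phase, were at the limit of detection. Saa1 had 1 and 3 fragments, and Saa2 had 1 fragment in replicate 1. The level of Saa1 was 0.070 and 0.17 TPM, and that of Saa2 in replicate 1 was 0.070 TPM. Saa2 had no fragment in replicate 2, which allows a level of up to 0.17 TPM (3 fragments). Saa4, the constitutive form, was at 0.030 and 0.040 TPM from 2 and 3 fragments. At this depth no difference among Saa1, Saa2 and Saa4 was detectable. Of the neighbours outside the cluster, Saal1 was at 4.19 and 5.96 TPM and Hps5 at 13.8 and 21.3 TPM.

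Itih4 (ENSMUSG00000021922.11), which encodes a heavy chain of the inter-alpha-trypsin inhibitor family and is made mainly by the liver, was low. It was at 1.44 TPM in replicate 1 and 0.30 TPM in replicate 2, from 151 and 39 fragments. A transcript of 2993 nt carried 79.9% and 63.1% of its TPM and one of 3159 nt carried 20.1% and 36.9%. The 3 other listed Itih4 transcripts had no counts. The remaining 9 members each had 1 transcript in the deposited tables, so no shift between isoforms could be seen for them.

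In order of mean level the members ran Hp, Lrg1, Orm1, Saa3, Orm2, Orm3, Itih4, Saa1, then Saa2 and Saa4 with equal means. The ranges of the 2 libraries did not overlap between neighbours from Hp down to Orm2. Orm2, Orm3 and Itih4 overlapped one another, and Saa1, Saa2 and Saa4 rested on too few fragments to be ordered. Bulk RNA does not say which cells carried these transcripts, and in it fewer cells of a type and less RNA per cell cannot be told apart.

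The promoters of Saa3, Saa1 and Saa2 are printed because these genes share a cluster and related coding sequences, while Saa3 had 47 and 64 fragments and Saa1 and Saa2 had 3 or fewer. They are RefSeq sequences of build GRCm38.p6, from 250 bases before to 50 bases after the start of the gene, read on the gene's own strand. RefSeq promoters matched 8 of the 10 members, all but Hp and Orm1. Capitals mark TTNNGNAA on either strand, a core of sites of C/EBP factors, which raise acute phase genes. Saa3 is at chr7:46715627-46715926 (minus), Saa1 at chr7:46742931-46743230 (minus) and Saa2 at chr7:46751583-46751882 (plus).
Saa3: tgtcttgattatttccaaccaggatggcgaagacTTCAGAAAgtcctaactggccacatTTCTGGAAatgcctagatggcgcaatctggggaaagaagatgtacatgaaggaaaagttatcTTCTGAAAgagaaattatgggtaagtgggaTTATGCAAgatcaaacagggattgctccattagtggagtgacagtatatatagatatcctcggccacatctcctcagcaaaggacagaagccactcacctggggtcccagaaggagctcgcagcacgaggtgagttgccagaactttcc
Saa1: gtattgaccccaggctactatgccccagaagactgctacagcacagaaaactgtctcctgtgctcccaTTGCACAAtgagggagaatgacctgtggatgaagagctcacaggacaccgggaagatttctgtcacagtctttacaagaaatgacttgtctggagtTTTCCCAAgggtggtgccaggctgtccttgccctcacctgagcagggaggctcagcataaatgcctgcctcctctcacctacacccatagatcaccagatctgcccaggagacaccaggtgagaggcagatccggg
Saa2: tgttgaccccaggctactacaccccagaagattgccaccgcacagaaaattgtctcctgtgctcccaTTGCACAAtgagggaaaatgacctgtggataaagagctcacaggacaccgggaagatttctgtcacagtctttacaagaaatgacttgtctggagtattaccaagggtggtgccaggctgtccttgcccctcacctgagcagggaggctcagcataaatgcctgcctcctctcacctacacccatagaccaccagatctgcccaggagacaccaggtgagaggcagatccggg
The Saa3 window held 4 matches, starting 216, 191, 129 and 99 bases before the start. Saa1 held 2, at 182 and 86 bases, and Saa2 held 1, at 183 bases before it. At least 1 match occurred in 40.7% of the 32851 promoters of the table and 4 or more in 0.852%. A longer form, TTNNGNAAT on either strand, which overlaps the core, put Saa3 below Saa1 and Saa2, which were equal. It occurred once each in Saa1, Saa2 and Orm2 and not in Saa3 or the other 4 windows, against 11.5% of all promoters. Of the core, Orm2 held 2 matches, Orm3 held 1 and Saa4 held 2, while the windows of Itih4 and Lrg1 held none. The STAT letters TTCNNNGAA, on either strand, occurred once in the Itih4 window and in none of the other 7, against 8.30% of all promoters. The NF-kB core motif occurred in none of the 8, against 4.79%. These matches describe letters in a short window and say nothing of whether a factor binds there.

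To compare the libraries, TPM + 1 in replicate 2 was divided by TPM + 1 in replicate 1, and the log2 of this ratio was taken. On this scale low genes differ less than their TPM do. Genes whose ratio was past 2 either way, at a mean expected count of at least 20, were called over 2-fold apart. By this rule 2.70% of the 16920 genes with enough counts were over 2-fold apart. Among the 7 members with enough counts it was 1, Orm1, higher in replicate 2, where 1.15% of all genes were. The median log2 ratio of the 6 members averaging at least 1 TPM was 0.40, against -0.12 over 14875 such genes. These 6 leave out Itih4, which had a mean of 0.87 TPM and a log2 ratio of -0.91. They hold Orm2, which passed 1 TPM only in replicate 2. Ordered by log2 ratio, the middle of the 7 members with enough counts was Saa3, at 0.13. On CPM plus 1 the median of all genes was -0.03 and that of the same 6 members 0.42, and with TMM scaling added they were 0.01 and 0.45.

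**Figure D2:**
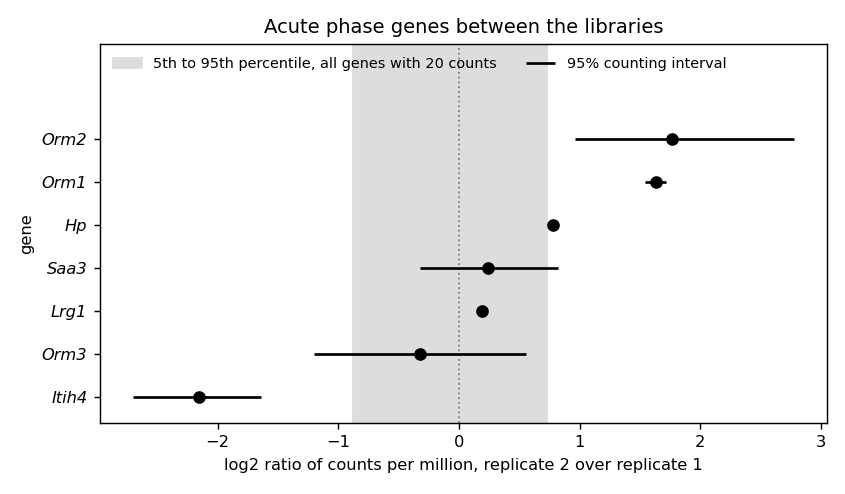
Log2 ratio of CPM (a gene's share of all fragments), replicate 2 over replicate 1, for the 7 members with a mean of 20 counts or more, with 95% counting intervals, over a grey band from the 5th to the 95th percentile of all genes with as many counts (-0.88 to 0.73). Orm1 at 1.63, Orm2 at 1.77 and Hp at 0.78 lie above the band, Itih4 at -2.15 lies below it, and Lrg1, Saa3 and Orm3 lie inside. Orm2 passed the count minimum only through replicate 2.

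Hp and Orm1 were the abundant members that differed most. Hp was 1.60-fold higher in replicate 2 by TPM, a log2 ratio of 0.67, and 91.0% of genes with enough counts had a smaller ratio in either direction. Orm1 was 2.89-fold higher in replicate 2, a log2 ratio of 1.51, and 99.2% of those genes had a smaller one. By share of fragments the differences were 1.72-fold (interval 1.70 to 1.74) and 3.09-fold (2.90 to 3.29), and these intervals cover counting error only. The 57 against 14 fragments of Orm2 gave a share 3.42-fold higher in replicate 2, with an interval of 1.95 to 6.89, while its log2 ratio of (TPM + 1) was 0.93.

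The log2 ratios of (TPM + 1) of Lrg1, Saa3 and Orm3 were small, at 0.08, 0.13 and -0.21. The counting intervals of Saa3 and Orm3, 0.801 to 1.77 and 0.434 to 1.47 as folds of replicate 2 over replicate 1, included equal shares. That of Orm3 also included a difference of over 2-fold, so few fragments leave its ratio uncertain. Saa1 and Saa4 had too few fragments for a ratio to be read, with intervals of 0.210 to 137 and 0.150 to 15.6. Itih4 went the other way from Hp and Orm1. Its log2 ratio of (TPM + 1) was -0.91, and its share of fragments in replicate 2 was 0.225 of that in replicate 1 (interval 0.154 to 0.321). With a pseudocount of 0.1 in place of 1, both Orm2 and Itih4 also passed 2-fold, so 3 of 7 members did, where 6.35% of all genes did. Orm2, with 14 and 57 fragments, passed the count minimum only through replicate 2, so its call there carries no weight of its own. Orm1 and Orm2 were higher in replicate 2, as were 2.13% of all genes, and Itih4 was higher in replicate 1, as were 4.22%. The use of this pseudocount for the 2-fold count was chosen after seeing the data, and so was the next unit. On CPM plus 1, which is not scaled by length, Orm1 and Itih4 passed 2-fold and 2.41% of all genes did. Of all genes 1.27% were then higher in replicate 2, like Orm1 at a log2 ratio of 1.59, and 1.13% in replicate 1, like Itih4 at -1.29.

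The tissue was checked by markers. All 10 adipocyte markers passed 1 TPM in both libraries, with medians of 858 and 1058. So did all 8 markers of the epididymis, the sperm duct that adjoins the fat pad in males, with medians of 3689 and 2659. The 9 macrophage, 8 endothelial and 6 mesothelial markers passed it too, and their medians lay between 10.1 and 64.4 TPM. Expected counts of Ensembl genes summed to 47106979 in replicate 1 and 54129473 in replicate 2.

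Hepatocyte markers moved with Itih4. Of the 12, 11 were higher by TPM in replicate 1, and 7 of the 11 with enough counts were over 2-fold higher there, where 1.54% of all genes were. Among the 7, Apoa1, Apoa2 and Apoh had 17, 15 and 6 fragments in replicate 2, so they passed the count minimum through replicate 1. Alb, which encodes serum albumin, was at 31.6 and 3.54 TPM from 2150 and 299 fragments. Ahsg, a fetuin, was at 9.15 and 1.27 TPM and Apoa2, an apolipoprotein, at 15.2 and 1.15 TPM. The summed level of the list was 284 and 96.5 TPM, of which Cyp2e1, a cytochrome P450 that fat cells also express, gave 211 and 57.3 TPM. Without Cyp2e1 and Serpina1a the other 10 summed to 69.4 and 7.33 TPM. Cyp3a11 had 39 fragments in replicate 1 and none in replicate 2. Serpina1a was the exception, at 3.92 and 31.8 TPM, and it belongs to a family of near-identical copies between which its reads may be split. Its copy Serpina1b, which is not on this list, was also higher in replicate 2, at 4.73 and 74.8 TPM. The part of these markers in the level of Itih4 was not tested.

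Hp and Orm1 differed in the opposite direction to these markers, being higher in the library where the markers were lower. The level of Hp was 37.5 times that of Alb in replicate 1 and 534 times in replicate 2, and the level of Orm1 was 1.92 and 49.4 times that of Alb. Alb itself was 8.92-fold higher in replicate 1, while Hp and Orm1 were 1.60-fold and 2.89-fold higher in replicate 2. The part of hepatocyte transcripts in the levels of Hp and Orm1 was not tested. The adipocyte markers were mixed. Cfd, which encodes adipsin and was the highest, was at 6724 and 3717 TPM, lower in replicate 2. Fabp4, a fatty acid binding protein gene, was at 2869 and 2744 TPM and Lpl, the lipoprotein lipase gene, at 1590 and 1863 TPM. Lep, the leptin gene, was over 2-fold higher in replicate 2, at 92.1 and 575 TPM, while Cidec, a lipid droplet protein gene, was at 1049 and 2068 TPM. Adipoq was at 767 TPM in replicate 1 and 1299 TPM in replicate 2. The list as a whole had a median log2 ratio of 0.02, with 5 of 10 markers higher in each library. The part of fat cell content in the levels of Hp and Orm1 was not tested.

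Neutrophils, which also make haptoglobin and Lrg1, left few transcripts. Of 12 markers 2 were expressed, and the list's summed level was 13.1 and 54.2 TPM. Ltf, the lactoferrin gene, which glandular epithelia also express, gave 8.10 and 35.9 TPM of this. S100a8 was at 0.61 and 8.68 TPM and Retnlg at 0.55 and 3.14 TPM, while S100a9, the partner of S100a8, was at 1.09 and 0.89 TPM. Of the defining markers, Ly6g had 1 fragment in each library and Mpo had 1 and 3. Of the 4 markers with enough counts 3, S100a8, Retnlg and Ltf, were over 2-fold higher in replicate 2, against 1.15% of all genes. S100a8, with 4 and 68 fragments, and Retnlg, with 8 and 56, passed the count minimum only through replicate 2. S100a9, with 12 fragments in each library, did not pass it. On CPM plus 1 with TMM scaling Retnlg fell under 2-fold, at a log2 ratio of 0.81, while S100a8 and Ltf were at 1.07 and 2.24. The part of neutrophils in the levels of Hp and Orm1 was not tested. Erythroid markers were higher in replicate 1, with all 5 that had enough counts over 2-fold higher there against 1.54% of all genes, and summed to 10310 and 4071 TPM. Hba-a1 and Hba-a2 are near-identical globin copies, so their split is uncertain. The part of blood in the levels of the members was not tested.

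**Figure D3:**
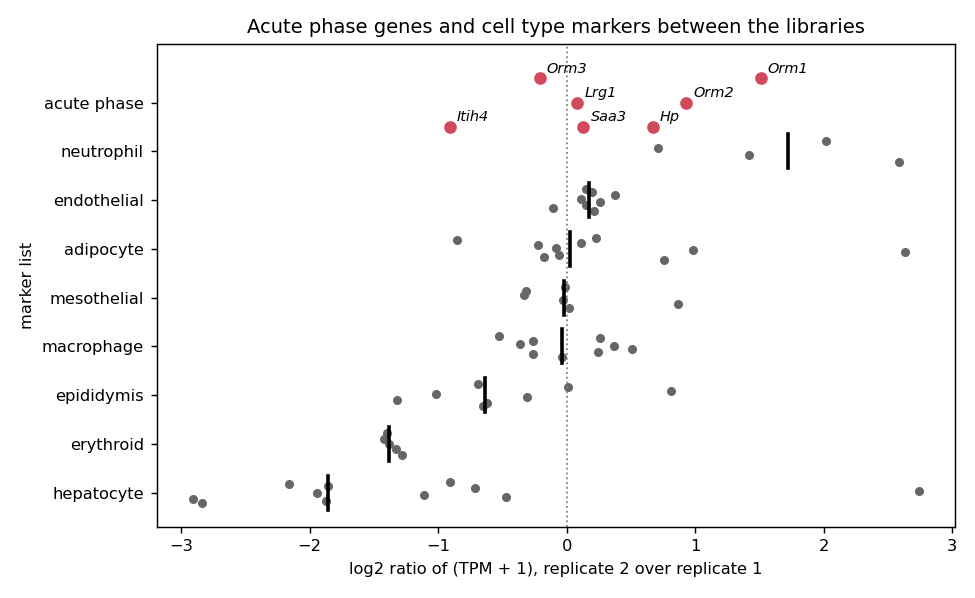
Log2 ratio of (TPM + 1), replicate 2 over replicate 1, of each cell type marker with a mean of 20 counts or more (grey, black bar at the median of the plotted genes) and of the 7 acute phase genes with as many counts (red, offset up and down for legibility). Hepatocyte and erythroid markers lie mostly below -0.4, on the side of Itih4 at -0.91. Orm1 at 1.51 and Hp at 0.67 lie above 0, as do the 4 plotted neutrophil markers, 7 of 8 endothelial markers and 5 of 10 adipocyte markers. Of the neutrophil markers, S100a8 and Retnlg passed the count minimum only through replicate 2.

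Signalling genes of the acute phase response were measured from ligands to inhibitors. The inflammatory ligands were low. Of 10, only Tgfb1, which encodes transforming growth factor beta 1, and Lif reached 1 TPM in both libraries. Tgfb1 was at 42.6 and 24.4 TPM, Lif at 2.01 and 1.04 TPM. Il6, which encodes the main inducer of the hepatic response, had 0 and 4 fragments, or 0.10 TPM in replicate 2. Il1b had 8 and 40 fragments and was at 0.30 and 0.84 TPM, and Tnf was at 0.68 and 1.01 TPM from 36 and 65 fragments. Il22 had none in either library.

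Of the 12 genes on the receptor list 9 were expressed, and the list's medians were 9.77 and 7.67 TPM. Tnfrsf1a, a receptor of tumour necrosis factor, was highest at 123 and 137 TPM. Il6st, the signal-transducing chain gp130, was at 38.2 and 26.0 TPM and the interleukin-6 receptor gene Il6ra at 10.6 and 8.63 TPM. Il10rb was at 37.5 and 42.8 TPM, Tnfrsf1b at 19.9 and 22.4 TPM and the interleukin-1 receptor gene Il1r1 at 7.40 and 5.47 TPM. The decoy receptor gene Il1r2 had 2 and 8 fragments. Il1rn, which encodes the secreted antagonist of the interleukin-1 receptor, was at 0.58 and 2.16 TPM. Its log2 ratio of 1.00 lay on the 2-fold line, so it was not called as past it.

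Kinases, transcription factors and inhibitors of the pathway were expressed for 15 of 16 genes, with medians of 36.2 TPM in replicate 1 and 25.5 TPM in replicate 2. The C/EBP factor genes Cebpa and Cebpb led. Cebpa was at 225 and 198 TPM, Cebpb at 173 and 125 TPM, followed by Stat3 at 94.8 and 82.8 TPM and the NF-kB subunit gene Rela at 61.0 and 45.9 TPM. Socs3, an inhibitor that STAT3 induces, was at 3.67 and 4.12 TPM. No ligand, receptor or regulator of these 3 lists was over 2-fold apart between the libraries, among the 4, 11 and 16 with enough counts.

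**Figure D4:**
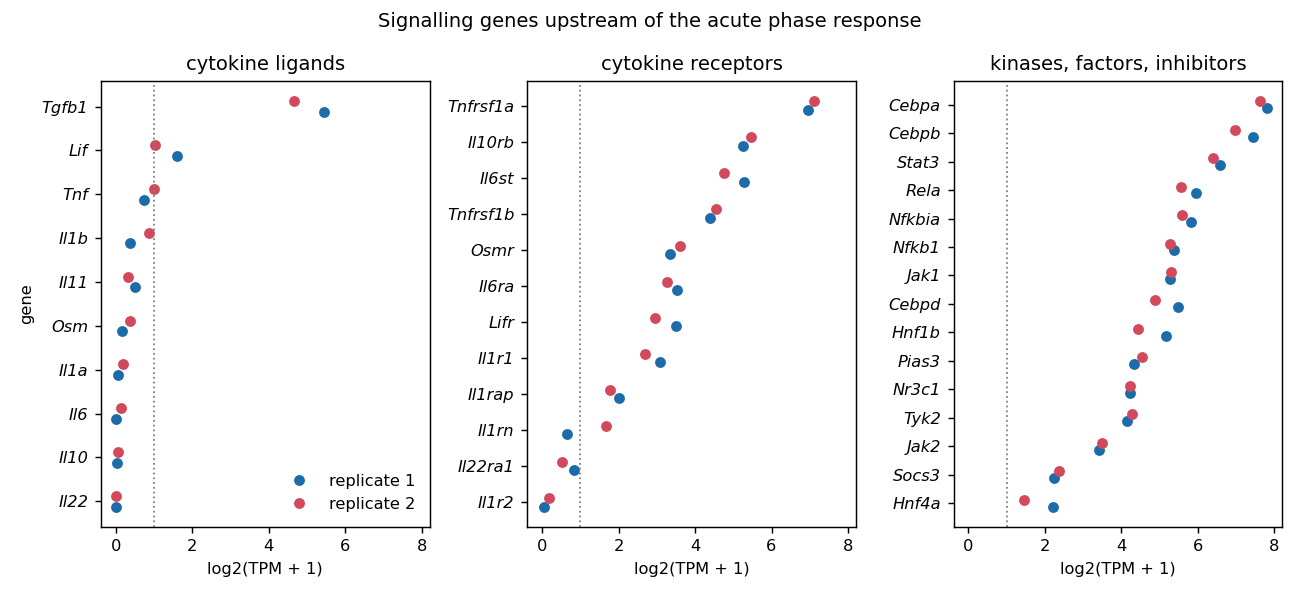
Log2(TPM + 1) of cytokine ligands, cytokine receptors, and the 15 expressed kinases, factors and inhibitors, with replicate 1 in blue and replicate 2 in red; the dotted line marks 1 TPM. Most ligands lie left of the line, while 9 of 12 receptors lie right of it, as do the kinases, factors and inhibitors shown, in both libraries.

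Other acute phase proteins gave a mixed picture beside the 10 members. Of 26 genes 17 were expressed. The list does not separate genes that the response raises from those that it lowers. The list's medians were 5.99 TPM in replicate 1 and 17.7 TPM in replicate 2, and its median log2 ratio was -0.10. Lcn2, a lipocalin that binds bacterial siderophores, was highest at 5287 and 2986 TPM. The epididymis markers, which summed to 33622 and 22815 TPM, were likewise higher in replicate 1 for 6 of 8, and their part in the level of Lcn2 was not tested. Lcn2 was followed by Mt1, a metallothionein, at 721 and 859 TPM, Trf, which encodes transferrin, at 760 and 816 TPM, and Serping1, an inhibitor of complement C1, at 448 and 451 TPM. Over 2-fold higher in replicate 2, like Orm1, were 4 of the 23 with enough counts, against 1.15% of all genes. They were the serine protease inhibitor gene Serpina3n at 121 and 381 TPM, Serpina1a, Serpina1b at 4.73 and 74.8 TPM, and the pentraxin gene Ptx3 at 0.69 and 3.60 TPM. Over 2-fold higher in replicate 1, where 1.54% of all genes were, were 5. They were Alb, the transthyretin gene Ttr at 5 and 0.56 TPM, the fibrinogen genes Fga at 6.79 and 2.47 TPM and Fgg at 3.28 and 0.89 TPM, and the hemopexin gene Hpx at 4.68 and 1.30 TPM. Alb, Ttr and Serpina1a also stand in the hepatocyte list. Crp, which encodes C-reactive protein, was at 0.67 and 0.22 TPM, and Apcs, which encodes serum amyloid P, had no fragment in either library.

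Relatives of Itih4 and partners of the secreted proteins were compared last. In the inter-alpha-trypsin inhibitor family list, Itih5, a form made outside the liver, was highest at 54.0 and 63.5 TPM, and Itih2 was at 4.49 and 2.57 TPM. Ambp, which encodes bikunin, the light chain of the family, was at 1.28 and 0.10 TPM from 50 and 5 fragments, lower in replicate 2 like Itih4. Tnfaip6, which encodes the protein that transfers heavy chains to hyaluronan, was at 0.77 and 1.55 TPM. Of the 14 partners and receptors 11 were expressed. Cd163, the macrophage receptor for haptoglobin bound to haemoglobin, was at 3.22 and 1.92 TPM, and Hmox1, the haem oxygenase that breaks down the haem taken up, at 16.6 and 17.8 TPM. Scarb1, a receptor for high-density lipoprotein, led at 199 and 165 TPM, followed by Lrp1, a receptor for haem bound to hemopexin, at 142 and 76.1 TPM. Eng, a co-receptor through which Lrg1 protein acts, was at 89.3 and 83.8 TPM, and Acvrl1, a receptor of the same pathway, at 37.6 and 39.9 TPM. Fpr2, a receptor for serum amyloid A, was at 0.19 and 0.26 TPM from 6 and 11 fragments.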

How the data were processed

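Polyadenylated RNA of the gonadal fat pad was sequenced in 2 libraries of 1 group. Libraries were strand-specific, made from RNA over 200 nt and read in pairs of 76 nt, per the labels. The deposited gene and transcript tables give expected counts, TPM and FPKM, and the percent of a gene's TPM in each of its transcripts, per the file headers. Build mm10 and GENCODE M4 are named in notes deposited with the tables. Which aligner and quantifier were run is not given in the sources used here. Junction and contig tables on mm9 were not used here. Expected counts of Ensembl genes summed to 47106979 and 54129473.

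Symbols matched 42462 of 43346 Ensembl genes. Positions and transcript sequences came from GENCODE M21, promoters from RefSeq GRCm38.p6, and coding sequences were aligned with mafft. Expressed means at least 1 TPM in each library. Ratios used a pseudocount of 1, and 2-fold calls a mean expected count of 20. Intervals are 95% exact (Clopper-Pearson for ratios, Poisson for levels) on rounded counts. They cover counting error only, and the floor is 3 fragments. No significance test was run, since 1 group of 2 libraries has no comparison to test. Alternative scalings were TMM (edgeR 4.0.16) and size factors (DESeq2 1.42.0), both on CPM plus 1, so CPM plus 1 without scaling factors was added.

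The rule for named genes took all 10 members, and from each of 14 other lists up to 4 genes of highest mean TPM and textbook defining genes under 1 TPM. Other genes named, such as those over 2-fold apart, Il1rn and the neighbours of the Saa cluster, were chosen after their values were seen. The members and lists were chosen with earlier results of these data known.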

Additional observations from a re-analysis of the deposited data

How the results depend on the processing

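The number of members expressed was 4, and it was 6 at a threshold of 0.5 TPM, 3 at 5 TPM, 4 with posterior mean TPM and with FPKM, and between 5 and 6 when each replicate was used without the other. The number of members over 2-fold apart was 1, Orm1, with posterior mean TPM, with FPKM, with a minimum mean count of 100 and with none. It was 2, with Itih4 beside Orm1, on CPM plus 1 without scaling factors, and likewise 2 when TMM scaling or DESeq2 size factors were applied to CPM. It was 3 with a pseudocount of 0.1, where Orm2 joined as well, which passed the count minimum only through replicate 2. For this count the pseudocount of 0.1, and everywhere the unscaled CPM, were chosen after seeing the data. The median log2 ratio of members ran from 0.40 to 0.51 over its alternatives, always over the same 6 members, without Itih4. Of the 60 log2 ratios of single members under 6 alternatives, 12 moved by more than the half-width of the counting interval. These 12 were ratios of Hp, Orm1, Lrg1 and Itih4. None of the 60 changed sign, but many could not have. A change of pseudocount alone cannot turn a sign, which covers 10 of them. Rescaling cannot turn that of Saa2, which had no fragment in replicate 2. The scalings moved the median log2 ratio of all genes from -0.12 to at most 0.02, far less than the ratios of Orm1, Hp, Orm2 and Itih4. The kept signs therefore say little. The members held 0.174% of gene counts on average, 0.199% of TPM, and 0.132% to 0.217% in single libraries. No paired analysis was possible because there was 1 group. Saa1, Saa2 and Saa4 rested on 3 fragments or fewer in each library, which sets the limit of what can be said of them.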
